A study of Mus musculus with 8 samples.

Results

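The genes described here encode the machinery that starts transcription by RNA polymerase II: the TATA-binding protein TBP and the TBP-associated factors (TAFs), the general factors TFIIA, TFIIB, TFIIE, TFIIF and TFIIH, and the subunits of Mediator. They were chosen by symbol (Taf or Med followed by a digit, Tbp, Tbpl followed by a digit, and Gtf2 followed by a, b, e, f or h), and 64 of the 22200 genes in the table carry such a symbol. Of these, 23 belong to the TAF and TBP family, 13 to TFIIA through TFIIH and 28 to Mediator. Taf4, the gene inactivated in the line studied, is written Taf4a. The symbols Taf10, Taf1a, Taf1d, Med21 and Med29 were looked for but not found under those names, and these 5 genes were not analysed here.

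All 8 libraries came from immortalised mouse embryonic fibroblasts (MEFs) of the C57BL/6 background, labelled TAF4-/-. The study obtained this line by Cre-mediated deletion of the floxed allele in Taf4 lox/- MEFs, so every group, including the untreated one, carries the same inactivated gene and represents 1 cell line. The 3 groups were untreated cells at 12 h (3 libraries), cells given retinoic acid (RA) for 12 h (3 libraries) and cells given RA for 72 h (2 libraries), and the question was which transcripts respond early to RA and which change later. No untreated library at 72 h was part of the design, so the effect of RA and that of time in culture cannot be told apart in either comparison that involves 72 h. The sample titles carry cl1, which resembles the name C1 that the study gives to its TAF4-expressing line. The study's methods name C3, its Taf4-/- line, as the source of the sequenced RNA, RA-treated cells included. They also report that PCR genotyping and western blot verified the loss of TAF4 in C3. The genotype label was followed.

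Initiation at a promoter begins when TFIID, made of TBP and the TAFs, binds the core promoter. TFIIA and TFIIB stabilise TBP on DNA and bridge it to the polymerase, TFIIF accompanies the polymerase, and TFIIE brings in TFIIH, which opens the DNA and phosphorylates the polymerase tail. Mediator carries signals from DNA-bound activators, nuclear receptors for RA among them, to this assembly. Its head and middle modules contact the polymerase, its tail contacts activators, MED14 holds the modules together, and a detachable kinase module regulates the whole. Some TAFs have paralogues used mainly in germ cells, such as TAF4B, TAF7L and the TBP relative TBPL2.

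Per the labels, each transcript was read through a short tag beside a DpnII site (GATC), so what a library can count of a gene is set by the sequence of that tag. The tags that the mm9 annotation predicts are shown for the members on which the results turn and for 2 members with low values. Each is the site nearest the 3′ end of the longest coding transcript followed by 17 bases, on the transcript's strand, with the DpnII site in capitals.
Taf4a: GATCagtattttttacgacac
Taf11: GATCattaaacttttccaacc
Gtf2b: GATCtaggaaacagtattttg
Gtf2f2: GATCttgcaaatattcatgac
Med9: GATCttgaaatgggcacagcc
Med30: GATCaattacggaatctcatc
Taf13: GATCtacctgcctttgcctct
Med31: GATCatgctctgcgtcacgtc

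The Gtf2b tag lies in the 3′ UTR at chr3:142446503-142446523 on the plus strand, and the Med30 tag in coding sequence at chr15:52561661-52561681, also on the plus strand. Those of Taf11 (chr17:28038157-28038177, minus strand) and Med9 (chr11:59775246-59775266, plus strand) lie in the 3′ UTR, and that of Gtf2f2 (chr14:76395331-76395351, minus strand) in coding sequence. Each of these 5 tags had 1 exact copy in the mm9 genome. The Taf4a tag, in the 3′ UTR, had 2 copies, one inside the gene at chr2:179647047-179647067 on the minus strand and one outside it at chr7:125905738-125905758. The Taf13 tag had 16 copies in the genome, and the only DpnII site of Med31 lay in its 5′ UTR at chr11:72028779-72028799.

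Of the 63 members with an mm9 gene model, 54 had a tag with 1 genomic copy, 8 had a tag with at least 2 copies, and the tag of Med4 spanned an exon junction. The members with 1 copy had a median level of 370 normalised reads and those with at least 2 copies a median of 379. The same split was much wider among 67 genes for cytosolic ribosomal proteins, which every cell uses: the median was 4893 for 20 genes with 1 copy and 13.4 for 43 genes with at least 2 copies. Over all coding genes the medians were 51.1 (1 copy) and 18.0 (at least 2 copies). Of the 20 ribosomal protein genes with 1 copy, 8 were also below 50, and the highest with at least 2 copies stood at 47435. Of the 11 members below 50, 9 had a tag with 1 copy. Whether tag copies lower a value was not tested, and a low value alone does not say that a transcript was scarce. The study's methods describe reads from fragmented RNA instead, for which these tags would not apply.

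**Figure D1:**
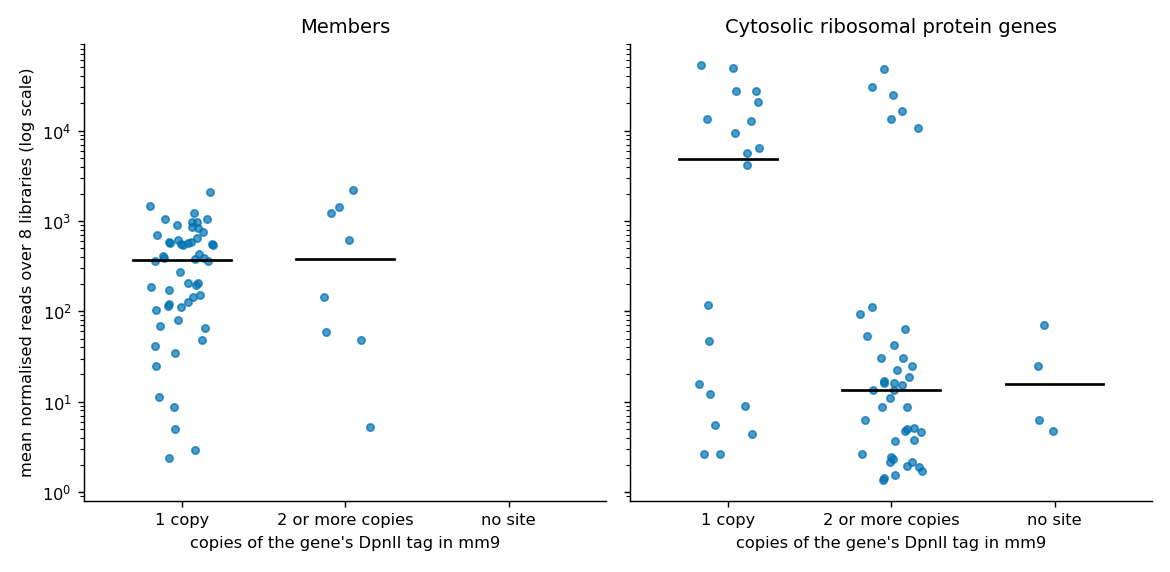
Mean normalised reads over the 8 libraries (log scale) for members (left) and genes of cytosolic ribosomal proteins (right), by the number of exact copies of the gene's DpnII tag in mm9. Each point is 1 gene and the line is the median; the ribosomal protein genes with at least 2 copies have a median of 13.4 against 4893 for those with 1 copy, while the medians of the members are 379 and 370. The junction-spanning tag of Med4 is not drawn.

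Values are normalised reads per gene, which the authors had brought to the same distribution in every library, so that all columns sum to 9442018.6 and the depth of each library is unknown. The 64 members together took 0.32% of that total, with sums between 29178 and 31183 per library. A mean of at least 10 normalised reads, the minimum for testing, was reached by 59 members, at least 100 by 49 and at least 1000 by 8. The median level of the tested members was 388, against 192 for all 12673 genes tested. Among untreated libraries the median coefficient of variation of the tested members was 12.6%. The summed values of 10 fibroblast markers lay between 215064 and 255402 (Thy1, Dcn and Lum were below 10 throughout). Those of 5 epithelial, 5 endothelial and 5 leukocyte markers did not exceed 37.2, 104 and 60.4. Of the 7 fibroblast markers tested, 4 were called at 72 h against untreated (limma, adjusted p below 0.05), beside 11.5% of all genes. Col3a1 (7868 against 21176 normalised reads) and Col1a2 (19667 against 27243) were lower. Pdgfra (408 against 206) and Pdgfrb (1143 against 806.5) were higher. The same 4 were called at 72 h against 12 h, and Pdgfra was also called at 12 h against untreated (581).

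Taf4a, the targeted gene (ENSMUSG00000039117, chr2:179646851-179711351), was read in every library labelled TAF4-/-. Its values were 1296.5, 1055 and 1403 normalised reads in untreated cells, 984, 1113 and 1171 after 12 h of RA, and 1449 and 1370 after 72 h. The untreated values overlapped both RA groups, and the 72 h libraries lay above all 3 libraries at 12 h. Which exons were removed is not given in the sources used here. Whether the tag in the 3′ UTR lies inside or outside the deleted part is therefore unknown, and these values do not check the genotype. The difference was -0.19 on the log2 scale at 12 h, 0.18 at 72 h and 0.37 between 72 h and 12 h. None passed the main test (limma, adjusted p 0.448, 0.451 and 0.127). The 72 h to 12 h difference passed in a limma fit of only these 2 groups (adjusted p 0.0486). It also passed with a term for 2 sets of libraries described below (limma, adjusted p 0.0224), which is no separate support.

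Its paralogue Taf4b, which is needed for germ cells of the ovary and testis, was read far less. The study states that in Taf4-/- MEFs TAF4B takes the place of TAF4, keeping TFIID whole and the cells alive. Protein was not measured in these libraries. Taf4b had 63.6, 72.6 and 62.4 normalised reads in untreated cells, 99.0, 53.1 and 73.0 after 12 h of RA and 49.5 and 50.9 after 72 h. Both 72 h libraries were below all others, and the 12 h group held both the highest and the lowest of the other 6 values. Per kb of transcript, untreated cells had 283 normalised reads of Taf4a and 12.9 of Taf4b. Within a library, the ratio of Taf4a to Taf4b reads ran from 9.94 (RA 12 h, replicate 1) to 29.3 (RA 72 h, replicate 1). The Taf4a tag had 2 genomic copies and the Taf4b tag 1. Taf4a also shares 62 exon bases with 4921531C22Rik on the opposite strand. Whether either affects the ratio was not tested.

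The balance of the paralogues was compared as the log2 difference of Taf4b and Taf4a reads in the same library. Its mean was -4.21 ± 0.33 (SD, n = 3) in untreated cells, -3.88 ± 0.54 (n = 3) after 12 h and -4.78 ± 0.09 (n = 2) after 72 h. The difference of 0.33 between 12 h and untreated had an exact two-sided permutation p of 0.6, where 3 against 3 libraries cannot go below 0.1. The differences of -0.57 from untreated and -0.90 from 12 h at 72 h each had an exact permutation p of 0.2, the smallest that 2 against 3 libraries allow, so this test cannot show a shift at 72 h.

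**Figure D2:**
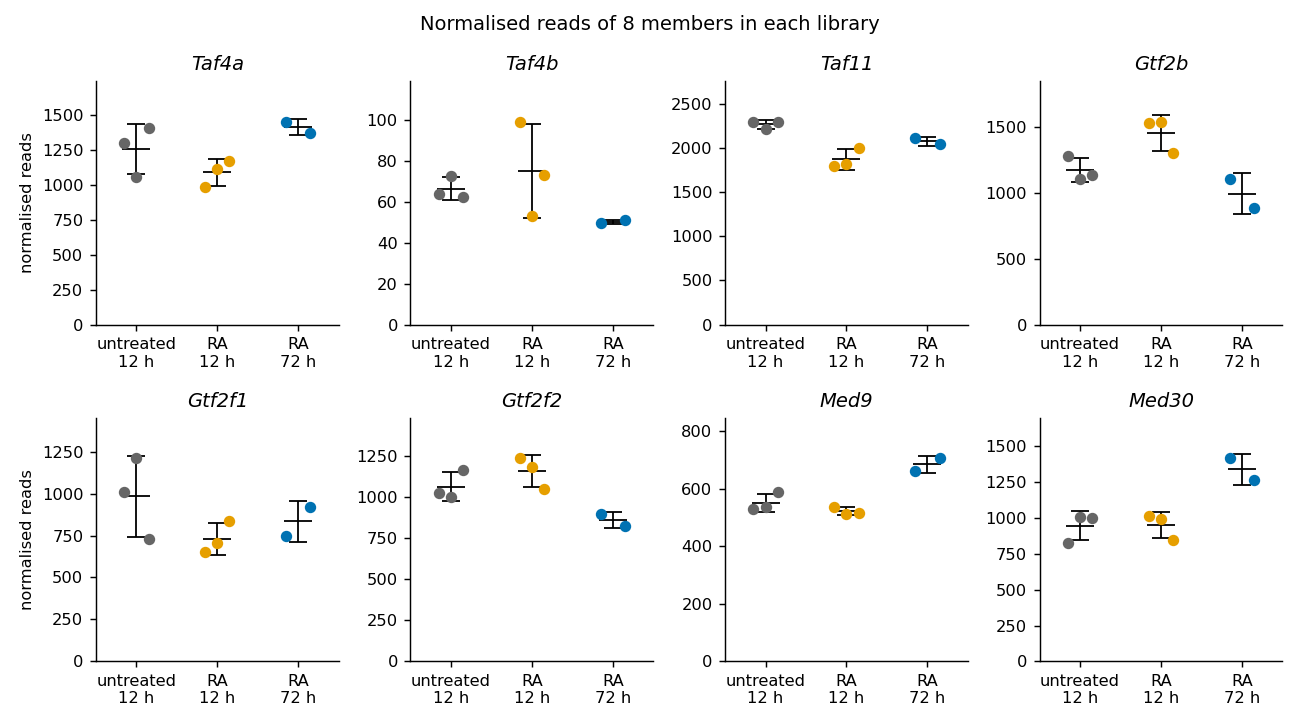
Normalised reads of 8 members in each library, 1 panel per gene with an axis from 0; points are libraries, the horizontal line is the group mean and the whiskers are the SD (n = 3, 3 and 2). Gtf2b is highest at 12 h (1300.1 to 1541) and stands at 1106 and 884 at 72 h, and Med30 is highest in the 2 libraries at 72 h (1262 and 1415).

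The first comparison, RA for 12 h against untreated, asked which transcripts moved early. None of the 59 tested members rose or fell (limma, adjusted p below 0.05), beside calls for 4.37% of all genes (2.87% up and 1.5% down). At an unadjusted p below 0.05 there were 5 members, against 16.3% of all genes. The groups did not overlap for 7 members (1 higher and 6 lower after RA), where 20% of all genes showed this. For 58 of 59 members the 95% interval of the change lay within 2-fold in either direction, against 85.5% of all genes, and for 41 it lay within 1.5-fold, against 56.2%. The width of an interval depends on level in this fit, and the tested members had the higher median level (388 against 192). Here and in the later comparisons, the interval shares of members and of all genes are therefore not at like levels. The changes ran from -0.41 to 0.38 with a median of -0.01 on the log2 scale, beside a median of -0.02 over all genes.

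Among the TFIID subunits, the member nearest to the threshold at 12 h was Taf11, a histone-fold partner of TAF13, named here after its values were seen. Taf11 had 2296, 2208.5 and 2291.5 normalised reads in untreated cells and 1789, 1819 and 2002 after 12 h of RA. All 3 RA libraries were below all 3 untreated libraries. The difference was -0.28 ± 0.09 (SE) with an adjusted p of 0.118. After 72 h Taf11 stood at 2110 and 2038, again below the untreated values and above those at 12 h.

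TBP, which binds the TATA box, and TAF1, the largest TFIID subunit, are at the centre of the complex. Tbp had means of 791 ± 140 (SD, n = 3), 776 ± 50.6 (n = 3) and 660 ± 13.6 (n = 2) normalised reads in untreated, 12 h and 72 h libraries, and Taf1 had 290 ± 6.12, 255 ± 17.5 and 280 ± 21.1. Neither passed the test in any comparison. Tbp shares 2582 exon bases with Pdcd2 on the other strand, and whether the counting used strand is not given in the sources used here.

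TAF9, which pairs with TAF6, and TAF5, a scaffold subunit, were the highest and lowest of the tested TFIID subunits by level per kb of transcript. Untreated cells had 1763 normalised reads per kb of Taf9 and 13.0 of Taf5. If each transcript gave 1 tag, as the labels describe, reads would not grow with length, and by reads alone Taf11 (2265) stood above Taf9 (2169) and, in the Mediator tail, Med27 (957) above Med30 (944). Taf9 stood at 2169 ± 119, 2322 ± 230 and 2121 ± 44.3 normalised reads in the 3 groups, and its tag had 3 genomic copies. The change of Taf5 was 0.28 at 12 h and 0.45 at 72 h against untreated, the latter with an interval from -0.13 to 1.02 (adjusted p 0.341). Taf5 had 39.1, 58.8 and 29.0 normalised reads in untreated cells, so its untreated values alone span both libraries at 72 h (55.5 and 56.0).

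Taf7, whose protein binds TAF1 and holds its activity in check, had 112, 86.0 and 112 normalised reads in untreated cells, 82.6, 107 and 80.8 after 12 h and 126 and 125 after 72 h. Both 72 h libraries exceeded all others. The 72 h to 12 h difference was 0.48 ± 0.19 with an adjusted p of 0.171. Taf13 stayed below the minimum for testing, between 2.25 and 9.13 normalised reads, with the many-copy tag shown above.

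Members known mainly from other complexes or other tissues showed small differences. Tbpl1, a TBP relative known for its role in spermatid development, had means of 513, 576 and 524 normalised reads, and Taf9b, the TAF9 paralogue, 122, 114 and 127. Taf5l and Taf6l, which replace TAF5 and TAF6 in the acetyltransferase complex SAGA, had 585, 672 and 574 and 203, 210 and 200 (values in order untreated, 12 h, 72 h). Taf15, an RNA-binding protein of the FET family that can associate with TFIID, had 592, 629 and 634.5. None of these 5 passed the test in any comparison, and their differences from untreated lay between -0.10 and 0.20. The germ-cell paralogues Taf7l and Tbpl2 were below the minimum, at 1 to 4.88 and 1 to 5.5 normalised reads, where 1 is the lowest value the table holds.

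Taf1b and Taf1c belong to SL1, the TBP complex of RNA polymerase I. Taf1c had 167, 153 and 181 normalised reads in untreated cells, 118, 129 and 140.5 after 12 h and 154 and 163 after 72 h. The 12 h values were below all others. Its change at 12 h was -0.37 ± 0.13, one of the 3 most negative among the members, with an adjusted p of 0.166. Taf1c shares 480 exon bases with Lrrc50 on the opposite strand.

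TFIIB, encoded by the single gene Gtf2b (ENSMUSG00000028271, chr3:142428190-142446567), was the only called member among the general factors, and the call lay between the 2 times of RA. Its values were 1278, 1105 and 1139 normalised reads in untreated cells, 1530.5, 1541 and 1300.1 after 12 h of RA, and 1106 and 884 after 72 h. All 12 h libraries exceeded all others, and the 72 h values overlapped the untreated ones. Gtf2b fell by 0.56 ± 0.13 on the log2 scale from 12 h to 72 h (0.68-fold, interval -0.83 to -0.28, limma adjusted p 0.0216). Its steps against untreated, 0.31 at 12 h and -0.24 at 72 h, did not pass (adjusted p 0.184 and 0.275).

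The Gtf2b call was lost without RA 12 h replicate 1 (adjusted p 0.0938), without RA 12 h replicate 2 (0.106) and without RA 72 h replicate 2 (0.287), and also when the variance was not allowed to depend on level (0.0948). The largest spread within groups divided the libraries into 2 sets that follow no label. In 1 set Gtf2b differed by -0.56 (RA 72 h replicate 2 against RA 12 h replicate 3). In the other it differed by -0.47 (RA 72 h replicate 1 against RA 12 h replicates 1 and 2). The sets were taken from these same values, so the differences within them are no separate support for the call.

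Neither subunit of TFIIF was called. Gtf2f2, the smaller subunit, named here after its values were seen, had 1022.5, 999.8 and 1166 normalised reads in untreated cells, 1234, 1184 and 1047 after 12 h and 894 and 823 after 72 h. Both 72 h libraries were below the other 6. The 72 h to 12 h difference of -0.43 ± 0.12 had an adjusted p of 0.0501, just outside the threshold. Gtf2f1, the larger subunit, had 1007.5, 1210 and 732 in untreated cells, 650, 706 and 835 after 12 h and 746.5 and 922 after 72 h, and its groups overlapped. Its change at 12 h was the most negative of all members, -0.41 ± 0.17 (adjusted p 0.235), and it passed only without untreated replicate 3 (-0.60, adjusted p 0.00981).

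No subunit of TFIIA or TFIIE, which join TBP and TFIIH at the promoter, was called. Gtf2a1 had means of 1449, 1425 and 1420 normalised reads and Gtf2a2 692, 680 and 763, in the order untreated, 12 h, 72 h. Gtf2e1 had 50.4, 48.8 and 45.8 and Gtf2e2 130, 117 and 139. These 4 genes were chosen after their values were seen, and their 95% intervals against untreated ran from -0.61 to 0.66. Gtf2a1l, a form of TFIIA used in the testis, was below the minimum at 2.5 to 7.75.

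TFIIH was represented by 5 core subunits, and none was called in any comparison. At 12 h 4 of the 5 had log2 changes above 0 (median 0.14), and against both untreated and 12 h all 5 lay below 0 at 72 h (medians -0.21 and -0.34), beside medians of -0.02 and -0.002 over all genes. Gtf2h4 was the highest per kb of transcript (315 normalised reads per kb in untreated cells) and Gtf2h5, whose protein stabilises the complex, the lowest (5.53). Gtf2h5 had 16.8, 12.5 and 8.0 normalised reads in untreated cells, 9.13, 13.4 and 14.4 after 12 h and 4.88 and 10.4 after 72 h. These values overlap, and the most negative change among the members in both 72 h comparisons (-0.66 and -0.68) carries SEs of 0.43. The other 5 TFIIH subunits, which the symbol rule does not take in, included 1 called gene: Cdk7, the kinase of TFIIH, was lower at 72 h than in untreated cells (1217 against 1584 normalised reads, -0.38 ± 0.11, adjusted p 0.0424).

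The second comparison, RA for 72 h against untreated, called 1 of 59 members, Med30, which was higher, beside calls for 11.5% of all genes (6.08% up and 5.41% down). At an unadjusted p below 0.05 there were 4 members, against 23.9% of all genes. The groups did not overlap for 13 members (5 higher, 8 lower), where 36.6% of all genes showed this. The interval lay within 2-fold for 55 members against 76.6% of all genes, and within 1.5-fold for 44 against 44.4%. The median change was -0.05, beside -0.02 over all genes, and the median size of a change was 0.13 against 0.22. These sizes were not compared at like levels either.

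The third comparison, 72 h against 12 h of RA, called 2 members, Med30 (higher) and Gtf2b (lower), beside 5.84% of all genes (2.92% higher and 2.92% lower). There were 7 members at an unadjusted p below 0.05, against 18.9%. The groups did not overlap for 19 members (12 higher, 7 lower), against 37.3% of all genes. The interval lay within 2-fold for 55 members, against 82.1%, and within 1.5-fold for 34, against 46.3%. No member was called with a change of at least 2-fold in any of the 3 comparisons, where 1.42%, 3.67% and 1.5% of all genes were. The 3 comparisons share libraries pairwise, so they are not independent of each other.

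**Figure D3:**
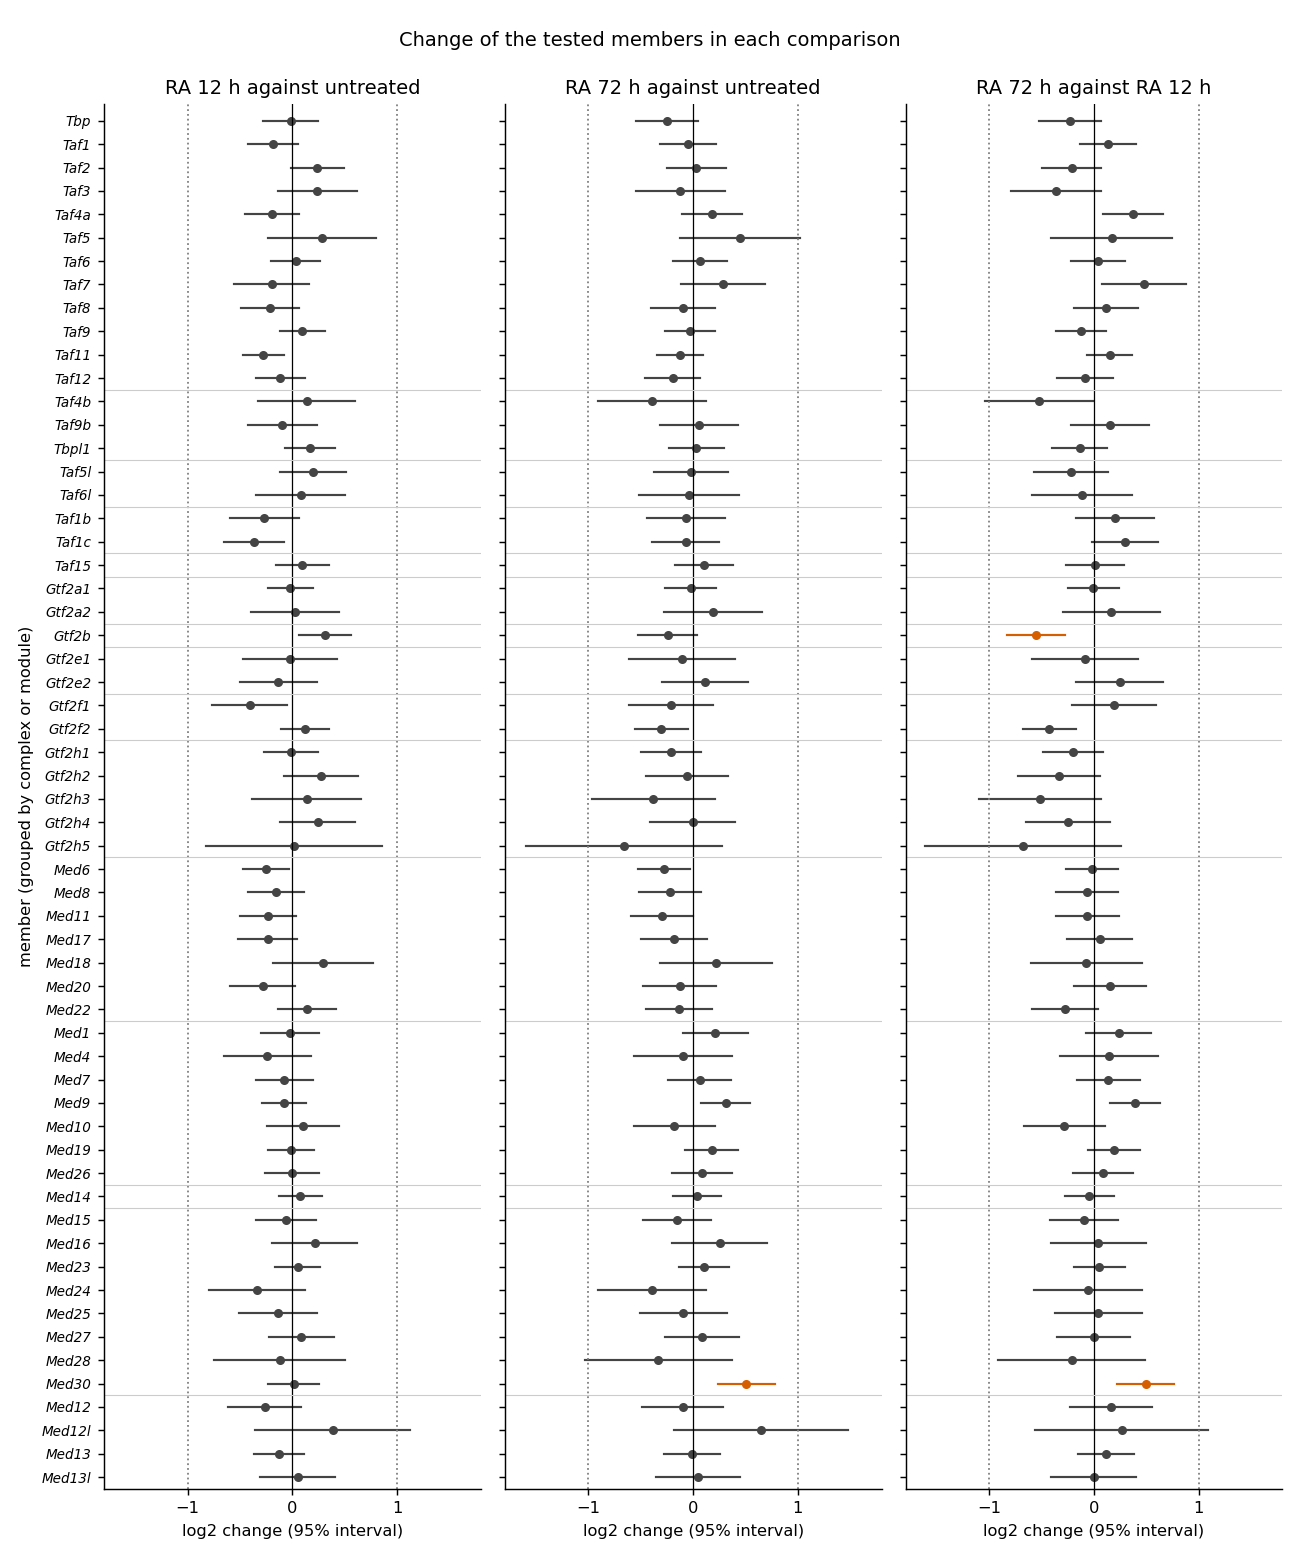
Log2 change and 95% interval of the 59 tested members in the 3 comparisons, grouped by complex or module (grey lines); dotted lines mark 2-fold and orange marks an adjusted p below 0.05 (limma). Orange points are Med30 in both 72 h comparisons (0.51 and 0.49) and Gtf2b in 72 h against 12 h (-0.56); no point lies beyond 2-fold.

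Med30 (ENSMUSG00000038622, chr15:52544000-52561986) encodes a Mediator subunit found in animals, grouped here with the tail. It had 827, 1005 and 1000.1 normalised reads in untreated cells, 1011, 995 and 849.5 after 12 h of RA, and 1415 and 1262 after 72 h. Both 72 h libraries exceeded all 6 others, and the untreated and 12 h values overlapped. Med30 was 0.51 ± 0.13 higher on the log2 scale than in untreated cells (1.42-fold, interval 0.23 to 0.78, limma adjusted p 0.0188) and 0.49 ± 0.13 higher than at 12 h (1.41-fold, 0.22 to 0.77, adjusted p 0.0366). Its change at 12 h was 0.01.

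Against untreated, the Med30 call was lost without untreated replicate 1 (adjusted p 0.0784), without RA 72 h replicate 1 (0.199) and without RA 72 h replicate 2 (0.0537), and without a variance trend (0.0728). Against 12 h it was lost when any 1 of the 5 RA libraries was left out (adjusted p from 0.0719 to 0.263), without a variance trend (0.122), and when genes of low level were kept in the test (0.0665), while the change itself stayed between 0.41 and 0.59 with a library left out in either 72 h comparison.

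The rest of the tail ranged widely in level. Per kb of transcript, untreated cells had 1084 normalised reads of Med30 and 6.06 of Med28. Med24, part of the activator-binding tail, had 43.9, 44.4 and 33.8 normalised reads in untreated cells, 27.9, 36.1 and 31.6 after 12 h and 29.6 and 31.4 after 72 h. The 72 h values were below all untreated ones, and the 12 h values overlapped both. Its differences of -0.34 and -0.39 from untreated did not pass (adjusted p 0.465 and 0.351). Summed over the 8 tail genes, the libraries had 3036 to 3472 normalised reads in untreated cells, 3188 to 3338 at 12 h and 3573 to 3724 at 72 h, and both 72 h sums were the highest. Without Med30, a sum chosen after the data were seen, the 72 h libraries had 2308 and 2311, inside the untreated range of 2208 to 2472, and 4 of the 8 tail genes lay above their untreated level at 72 h (median change -0.01).

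In the middle module, which contacts the polymerase, the highest tested gene per kb was Med19 and the lowest Med1 (308 and 66.3 normalised reads per kb). The place of Med1 comes from its long transcript (8024 bases). By untreated reads alone, Med1 (532) stood below Med19 (635) and Med9 (551). It stood above Med7 (387), Med4 (325), Med26 (202) and Med10 (175). Med9 had 531, 535 and 587 normalised reads in untreated cells, 537, 511 and 515 after 12 h and 663 and 705 after 72 h. Both 72 h libraries exceeded all 6 others. Med9 differed by 0.39 ± 0.11 between 72 h and 12 h (adjusted p 0.0528) and by 0.31 ± 0.11 from untreated (adjusted p 0.09). Med1, the subunit through which nuclear receptors bind Mediator, had 551, 468.5 and 577 in untreated cells, 623, 457 and 499 after 12 h and 617 and 611 after 72 h, and its changes of -0.02, 0.21 and 0.23 did not pass. Med31 was below the minimum for testing, at 3.88 to 15.9, with the single 5′ UTR site shown above.

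Most head genes, whose products contact the polymerase, lay below their untreated level after RA. At 12 h and at 72 h, this held for 5 and 6 of the 7 (median changes -0.23 and -0.18, beside -0.02 and -0.02 over all genes), none of them called. Summed normalised reads were 3432 to 3829 in untreated cells, 3142 to 3348 at 12 h and 3150 to 3155 at 72 h. No RA library reached an untreated one. Med30, grouped with the tail, is not in this sum. Other sums separated too: at 72 h the middle module (3048 and 3155) lay above all other libraries and TFIIF (1640 and 1745) below them. How often sums of other gene sets separate was not computed. Med6, the highest per kb (953) of the head genes with a gene model, had 1067, 898 and 1064 in untreated cells, 792, 889 and 854 after 12 h and 842 and 820 after 72 h. All 5 RA libraries were below all untreated ones, with differences of -0.25 ± 0.10 and -0.28 ± 0.11 (adjusted p 0.233 and 0.159). Med18, the lowest of these per kb (36.9), differed by 0.29 ± 0.22 at 12 h (adjusted p 0.542).

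**Figure D4:**
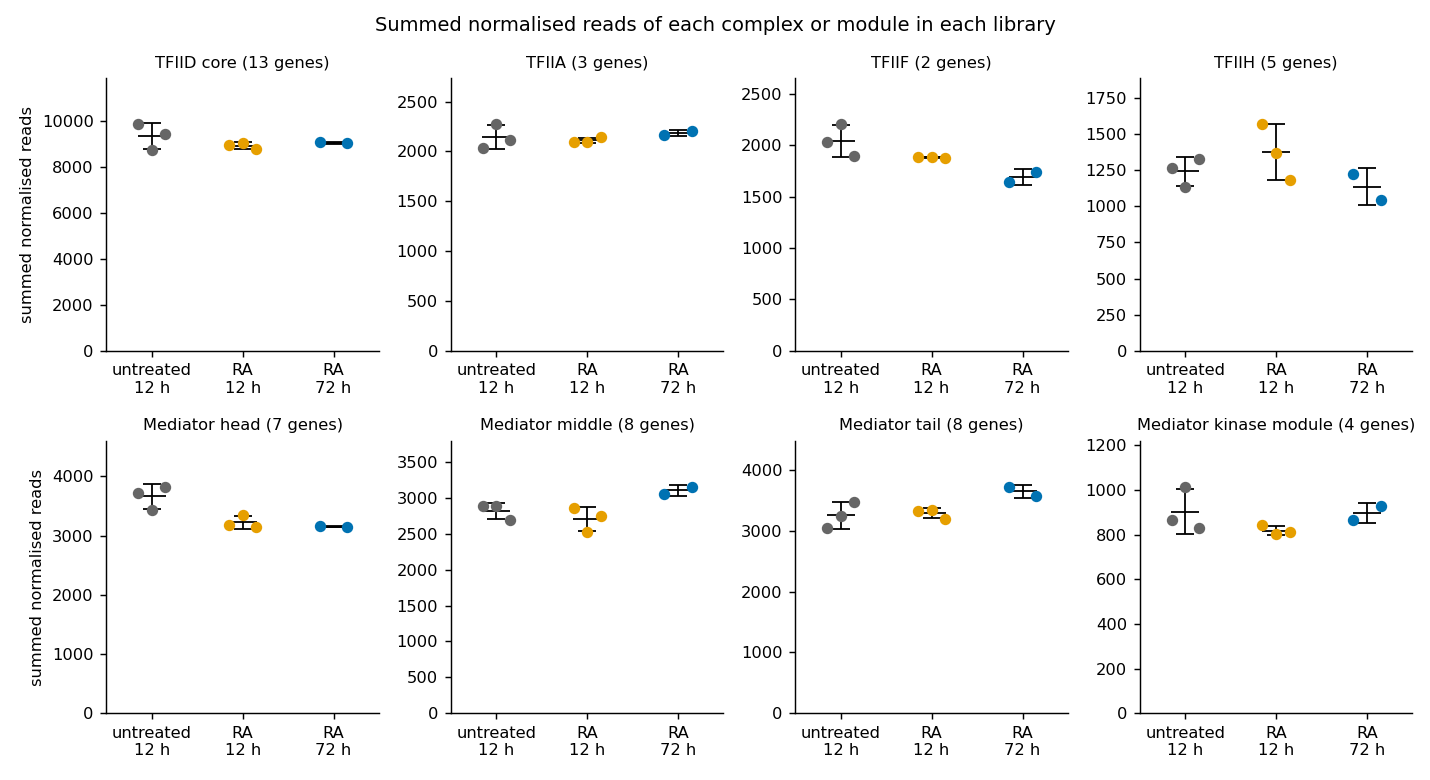
Summed normalised reads of the members of each complex or module in each library, with axes from 0; points are libraries, the line is the group mean and the whiskers are the SD (n = 3, 3 and 2). The Mediator head sums of the RA libraries (3142 to 3348) lie below the untreated ones (3432 to 3829). The tail sums at 72 h (3573 and 3724) lie above the others. Without Med30 the tail sums at 72 h are 2308 and 2311, inside the untreated range of 2208 to 2472. At 72 h the middle sums (3048 and 3155) also lie above the others and the TFIIF sums (1640 and 1745) below them.

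Med14, the gene for the backbone of Mediator, had 1357, 1402 and 1512 normalised reads in untreated cells, 1576, 1513.5 and 1415 after 12 h and 1533 and 1382 after 72 h. The groups overlapped, and all 3 intervals lay between -0.27 and 0.28 on the log2 scale. In the kinase module, Med12 was the highest per kb (56.0) and its paralogue Med12l the lowest (3.20). Med12l had 32.8, 19.9 and 45.9 normalised reads in untreated cells, 66.4, 39.5 and 25.9 after 12 h and 56.0 and 43.3 after 72 h. These values overlap, and the largest positive change of a member at 72 h, 0.65 from untreated, had an interval from -0.18 to 1.48 (adjusted p 0.341).

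Med12, Med13 and Med13l, which link the kinase to the rest of Mediator, were not called. Med12 had means of 388.5 ± 76.1, 320 ± 30.5 and 364 ± 89.8 normalised reads, Med13 had 370 ± 38.0, 338 ± 6.09 and 366 ± 10.5, and the paralogue Med13l had 111 ± 11, 116 ± 15.0 and 116 ± 25.4. Med12 shares 749 exon bases with Nlgn3 on the same strand, and Med12l shares 1676 with Igsf10 on the opposite strand.

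Lists of partners outside the symbol rule gave few calls as well. None of 11 tested RNA polymerase II subunits, 11 SAGA subunits or 3 partners of the Mediator kinase module was called in any comparison. Of 12 elongation factors, Supt4h1, a subunit of DSIF, was lower at 12 h (8.75 against 25.6 normalised reads, -1.49 ± 0.34, adjusted p 0.0218) and at 72 h (7.25, -1.68 ± 0.38, adjusted p 0.0105). Both RA means of Supt4h1 are under the minimum of 10, which the gene passed only through its untreated libraries. Ssrp1, a subunit of the histone chaperone FACT, also an elongation factor, was higher at 72 h than at 12 h (0.57 ± 0.12, adjusted p 0.0113). Fewer expressing cells and less RNA per cell cannot be told apart in these bulk libraries, for members and partners alike.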

How the data were processed

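The authors deposited 1 table of normalised reads per Ensembl gene for the 8 libraries, with decimal commas, beside group averages and log2 ratios of them that were not used. Sorted values were identical in all columns and values below 1000 were multiples of 0.125, so the libraries had been quantile normalised and no count method was applied. One line without a gene was left out. Per the labels, polyadenylated RNA was read as DpnII tags on build mm9. The study's methods describe fragmented RNA, Tophat and Cufflinks, and a time shorter than 72 h for the longer RA treatment, for which its results and the labels give 72 h. The design text counts 7 samples and the labels list 8, which were all used. Where nothing says that replicates were separate cultures, p-values measure only the spread between these libraries.

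Values were taken as log2(value + 1), so fold changes of low genes are understated. Genes with a mean of at least 10 were fitted with limma (version 3.58.1, R 4.3.3; 3 groups, variance trend, all 8 libraries), two-sided, with Benjamini-Hochberg adjustment over 12673 genes in each of 3 contrasts. Intervals are 95% and cover the spread between libraries. Paralogue balance was tested by exact permutation (scipy 1.17.1). On simulated data with 200 genes changed 2-fold, 171 were recovered with 13 false calls at 12 h against untreated, and 161 with 6 false calls at 72 h against untreated. The simulated noise had the same SD for all genes of the same level, which need not hold in the data. It was also independent between genes, whereas in the data 1 shared axis held 50.1% of the variance within groups. Changes smaller than 2-fold, such as those of the called members, were not simulated.

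Members, lists and tests were chosen with earlier results of these data known. Named are a panel of TFIID, TFIIB and Mediator genes, called members, and the 3 highest and 3 lowest changes per contrast. The highest and lowest member per kb in each list of at least 4 are named as well. So are members under the minimum and called genes of the partner and marker lists. Others were chosen after their values were seen. Gene models were those of the mm9 annotation, where 21465 identifiers (96.7%) and 63 members were found, all but Med20. Alternatives were a pseudocount of 10, other minimums, a replicate block, fits of 2 groups, no variance trend, a term for the 2 sets of libraries, a 2-fold requirement and leaving out each library.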

Additional observations from a re-analysis of the deposited data

Results flagged for a closer look

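For 2 members the response to RA differed between the times, by the direct contrast of 72 h with 12 h: Gtf2b, at -0.56 on the log2 scale, and Med30, at 0.49 (limma, adjusted p 0.0216 and 0.0366). Gtf2b was lower in both 72 h libraries than in all 3 libraries at 12 h, and Med30 was higher in both. Time in culture changed together with time in RA, so the contrast cannot tell them apart.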

How the results depend on the processing

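No setting changed the direction of a called member, but each call was lost under some. Against untreated at 12 h, where 0 members were called, 1 was called with a term for the 2 sets of libraries (Taf11), and leaving out 1 library gave 0 to 1 (Gtf2f1, without untreated replicate 3). At 72 h against untreated, 1 member was called, 0 without a variance trend or with a 2-fold requirement, 5 with the term for the sets (2 higher, 3 lower), and 0 to 3 with 1 library left out (0 without untreated replicate 1 or either 72 h library, 3 without untreated replicate 3). At 72 h against 12 h, 2 were called, 1 with no minimum level, 4 with a minimum of 50, 5 in a fit of only these groups, 0 without a variance trend or with a 2-fold requirement, 6 with the term for the sets, and 0 to 4 with 1 library left out (0 without RA 12 h replicate 1 or 2 or RA 72 h replicate 2, 1 without RA 72 h replicate 1, 4 without untreated replicate 3). At 72 h against untreated, the 5 with the term for the sets were Med30 and Med9 (higher) and Gtf2f2, Med6 and Med11 (lower). At 72 h against 12 h, the 4 with a minimum of 50 were Gtf2b, Gtf2f2, Med9 and Med30. The fit of only these groups called Taf4a as well, and the term for the sets called Taf4a and Taf7 as well. A pseudocount of 10 called 3 members (Gtf2b, Gtf2f2 and Med30). The 2 sets were defined from the spread within groups of these same values, so a term for them narrows the residual spread by design. The counts with that term are therefore no separate support for a call. The cause of the other shifts was not tested.

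The change of Med30 at 12 h, 0.01, became -0.047 with the term for the sets and ran from -0.079 to 0.093 with 1 library left out (-0.032 without RA 12 h replicate 1, -0.021 without replicate 2). That of Taf4b at 12 h, 0.14, ran from -0.083 to 0.359. Of 353 alternative values for 24 named changes, 323 kept direction and side of the threshold, 8 passed it, 17 no longer passed it and 5 changed sign. Leaving out a 72 h library leaves 1 in that group, assumed to vary like the others.

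Same-numbered libraries did not deviate together (correlations from -0.47 to 0.42), so the replicate numbers do not pair the samples. With a replicate block the counts of called members were 0, 0 and 1 (Gtf2b), in the order of the comparisons, and Med30 lost both of its calls (adjusted p 0.0735 against untreated and 0.126 against 12 h).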
